A study of Mus musculus with 4 samples.

Results

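The genes described here are 10 genes of the fibroblast growth factor (FGF) system, chosen by symbol as FGF ligands and receptors of stem cells and the early embryo, out of 24428 gene symbols counted. They are the ligand genes Fgf4, Fgf5, Fgf8, Fgf15 and Fgf17, the receptor genes Fgfr1, Fgfr2, Fgfr3 and Fgfr4, and Fgfbp1, which encodes a secreted FGF-binding protein. Poly(A) RNA was sequenced from mouse embryonic stem cells (129SvEv background) grown in serum with LIF. All the cells are Smarca4flfl conditional knockout cells, in which 4-hydroxytamoxifen switches on a Cre-ER recombinase that cuts out the floxed part of Smarca4; the promoter that drives Cre is not given in the sources used here. Smarca4 encodes BRG1, the motor subunit of BAF complexes, which move nucleosomes. The tamoxifen group (n = 2) had 48 h of 4-hydroxytamoxifen at 0.8 uM, and the ethanol group (n = 2) had ethanol for as long. Cells of both groups were collected at 72 h. The genotype label is the same for both groups, and it names deletion of Smarca4 also for the ethanol libraries, so the groups rest on the titles and treatment labels. Deletion, drug and active Cre differ together between the groups and cannot be told apart. The labels do not say that the replicates are separate cultures, so the spread behind each p-value is that between libraries, which may be technical.

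FGF ligands are secreted proteins that bind receptor tyrosine kinases together with heparan sulfate chains and, for the endocrine ligands, with Klotho proteins. Bound receptors recruit the adaptor FRS2 and pass the signal through RAS, RAF and MEK to ERK, which switches on ETV factors and the SPRY and DUSP feedback inhibitors. In mouse embryonic stem cells FGF4 is the main ligand that the cells make for themselves, and ERK signaling from it readies them to leave the naive state.

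Reads assigned to genes numbered 13458463 and 17191445 with tamoxifen and 16130823 and 27086142 with ethanol. Smarca4, the targeted gene, had 968 and 1226 reads with tamoxifen and 5042 and 10649 with ethanol, which edgeR put at a log2 fold change of -2.43 ± 0.17 (SE; adjusted p = 1.08e-05). Reads assigned to no counted feature took 37.6 and 35% of all reads, summary lines included, with tamoxifen and 51.7 and 40.8% with ethanol. As the annotation and strand setting are not given, these reads may lie within genes or outside them. All 12 listed stem cell markers were read in all 4 libraries, and their summed level ranged from 5690.9 to 5967.2 CPM (counts scaled to library size with TMM factors) with tamoxifen and from 5621.0 to 5688.7 CPM with ethanol. Of these markers 2 were higher and 1 lower with tamoxifen (4 and 2 with GC correction). The sum covers moves both ways, with 2 genes named after their values were seen. Dppa5a had a mean of 1448.0 CPM with tamoxifen against 1001.5 with ethanol, and Tdgf1 1099.0 against 1578.5 (not called with GC correction). Of 24 fibroblast markers 22 were tested, and 17 were higher and 0 lower with tamoxifen (18 higher with GC correction). Over all tested genes 21.5% were higher and 22.9% lower with tamoxifen (10.1% and 9.97% with GC correction). The summed level of the fibroblast markers was 2056.7 and 2256.6 CPM with tamoxifen against 1166.6 and 999.2 CPM with ethanol. Of these markers only Lum was at 0 in a library. Their part in the results below was not tested. In bulk RNA fewer cells of a type and less RNA per cell cannot be told apart.

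Across the genome 44.5% of 14479 tested genes differed between the treatments at an adjusted p under 0.05, 21.5% higher and 22.9% lower with tamoxifen. All 10 FGF genes passed the filter on low counts. Of these, 6 were higher with tamoxifen (Fgf5, Fgf8, Fgfr1, Fgfr3, Fgfr4 and Fgfbp1), 3 were lower (Fgf4, Fgf15 and Fgfr2), and Fgf17 did not pass. The median log2 fold change of the 10 was 0.66, against -0.01 for all tested genes. The levels of the 2 groups did not overlap for 9 of the 10, of which 6 lay above ethanol with tamoxifen and 3 below. The same held for 74.0% of all tested genes, 37.0% above and 37.0% below, so such separation was common in these libraries. Genes rich in G and C tended to be higher with tamoxifen, and a test with each library's trend along GC content removed called 20.0% of all genes. In that test 4 FGF genes were higher and 3 lower, against 10.1% of all genes higher and 9.97% lower. Their median log2 fold change was then 0.18.

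**Figure D1:**
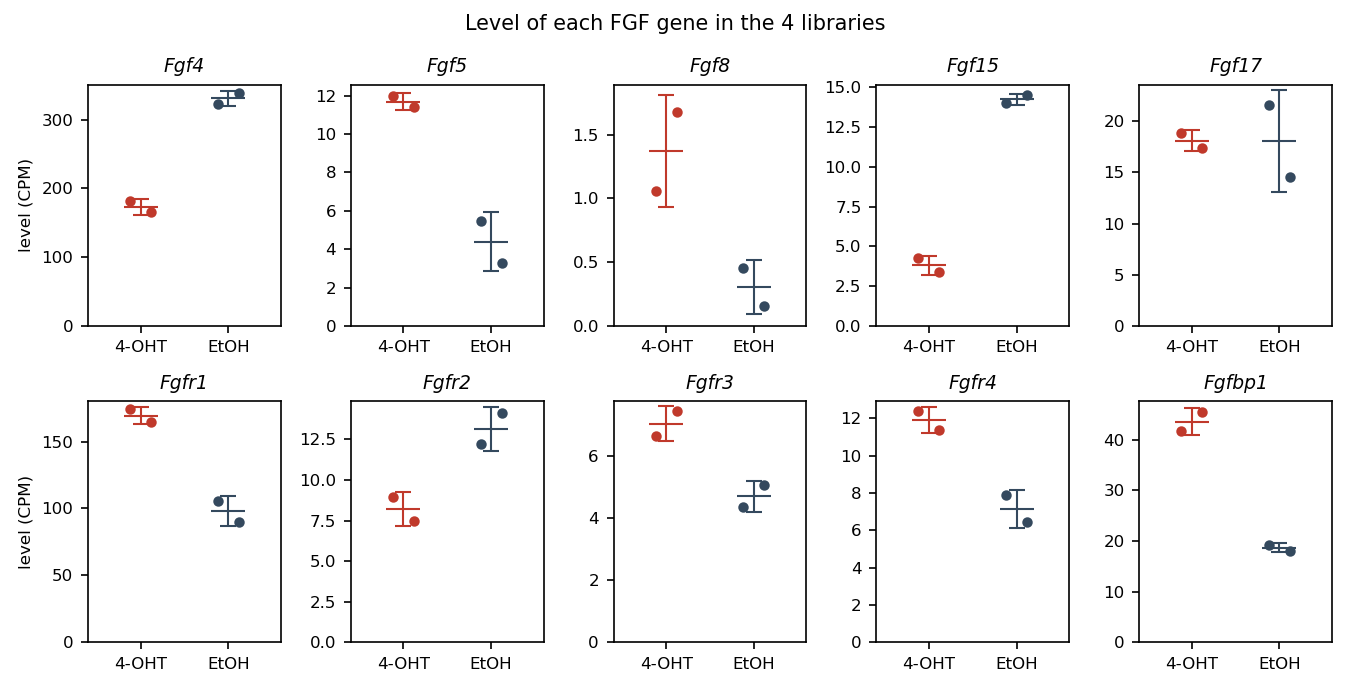
Level of each of the 10 genes in CPM (counts scaled to library size with TMM factors), with the tamoxifen libraries (4-OHT) left of the ethanol libraries (EtOH). Points are libraries, the horizontal bar is the mean and the error bar the SD of 2 libraries. Each vertical axis starts at 0 and has its own scale. Groups overlap only for Fgf17.

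The windows upstream of 2 genes that rose and 2 that fell are shown so that their base composition can be read beside the changes. Each is the 250 bases before a RefSeq start site in GRCm38.p6, a later build than that of the counts, and 6 of the 10 genes matched an entry in the table of start sites. The Fgf4 window is chr7:144861136-144861385 (plus strand), the Fgf5 window chr5:98253934-98254183 (plus strand), the Fgfbp1 window chr5:43981800-43982049 (minus strand) and the Fgfr2 window chr7:130266809-130267058 (minus strand). Capitals mark GC boxes (GGGCGG) and CCAAT boxes (CCAAT) on either strand.
Fgf4: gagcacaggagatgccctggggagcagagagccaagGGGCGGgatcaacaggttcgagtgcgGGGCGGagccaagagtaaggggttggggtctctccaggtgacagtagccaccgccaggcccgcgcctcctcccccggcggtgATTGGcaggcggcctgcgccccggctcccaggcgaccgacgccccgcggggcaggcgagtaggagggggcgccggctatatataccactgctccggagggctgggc
Fgf5: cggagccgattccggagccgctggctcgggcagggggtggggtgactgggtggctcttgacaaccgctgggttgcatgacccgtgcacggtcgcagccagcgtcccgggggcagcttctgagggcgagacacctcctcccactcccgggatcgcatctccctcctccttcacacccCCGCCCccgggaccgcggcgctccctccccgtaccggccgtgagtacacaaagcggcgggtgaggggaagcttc
Fgfbp1: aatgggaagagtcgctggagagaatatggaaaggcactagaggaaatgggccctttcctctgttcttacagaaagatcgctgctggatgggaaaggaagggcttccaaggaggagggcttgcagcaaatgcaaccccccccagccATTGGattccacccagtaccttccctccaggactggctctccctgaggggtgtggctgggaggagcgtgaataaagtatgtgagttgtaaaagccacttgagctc
Fgfr2: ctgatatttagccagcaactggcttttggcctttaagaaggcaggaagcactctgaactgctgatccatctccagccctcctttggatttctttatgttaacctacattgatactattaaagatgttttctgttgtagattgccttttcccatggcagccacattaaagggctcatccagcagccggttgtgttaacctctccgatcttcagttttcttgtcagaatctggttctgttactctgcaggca
GC content was 71.2% for Fgf4, 70.8% for Fgf5, 53.6% for Fgfbp1 and 44.0% for Fgfr2, against a median of 52.4% over 32851 windows. The Fgf4 window held 21 CG pairs and the Fgf5 window 24, while Fgfbp1 had 3 and Fgfr2 had 2. Among these 4, picked by direction of change, both a CG-rich and a CG-poor window stood before a gene that rose and before a gene that fell. The windows not shown held 19 and 24 CG pairs (Fgfr3) and 15 (Fgfr4), before genes called higher without GC correction. A link between base composition and change was not tested. The Fgf4 window had 2 GC boxes and 1 CCAAT box, that of Fgf5 had 1 GC box, and that of Fgfbp1 had 1 CCAAT box. A GC box was present in 32.7% of all windows and a CCAAT box in 33.8%. The other motifs searched on both strands were TATAAA (12.4% of windows), CACGTG (6.02%), TGACTCA (4.46%) and ATGCAAA (4.12%), and these letters are not in the 4 windows shown. A match of this kind is a description of the letters and not a measured binding site.

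Fgf4 had the highest level per kilobase of the FGF genes in both groups and was lower with tamoxifen. It had 181.2 and 165.2 CPM in the tamoxifen libraries, against 323.0 and 338.7 CPM in the ethanol libraries. The groups lay far apart compared with the gap between replicates. The mean was 173.2 ± 11.3 CPM with tamoxifen and 330.8 ± 11.1 CPM with ethanol (SD, n = 2 each), a log2 fold change of -0.93 ± 0.15 (SE; edgeR quasi-likelihood test, adjusted p = 0.000614) or a 1.91-fold lower level. GC correction left the log2 fold change at -0.94, and the call held under each of the 17 other ways of processing, between -1.01 and -0.81.

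Fgf15, the mouse counterpart of human FGF19 and an endocrine ligand known for its part in bile acid control, had the largest fall of the 10. Its level was 4.24 and 3.36 CPM with tamoxifen, against 14.0 and 14.5 CPM with ethanol. These levels rest on 60 and 60 reads with tamoxifen and 215 and 378 with ethanol. By the edgeR quasi-likelihood test this was a log2 fold change of -1.92 ± 0.20 (SE; adjusted p = 7.48e-05), and it stayed called between -2.09 and -1.75 in the 17 other ways of processing. Fgf4 and Fgf15 are next to each other on chromosome 7, with Fgf3 on the far side of Fgf4 and Oraov1 on the far side of Fgf15. Neither flanking gene was called lower. Antisense genes overlap exons of Fgf15 and of Fgfr3 in the annotation and were not analysed here. Fgf3 had 31 and 38 reads with tamoxifen and 14 and 31 with ethanol, a log2 fold change of 1.0 ± 0.32 (adjusted p = 0.0222) that was not called with GC correction (0.56), with DESeq2 (1.02) or without tamoxifen replicate 1 (0.98), tamoxifen replicate 2 (1.03) or ethanol replicate 1 (0.86). Oraov1 had 0.33 ± 0.19 (adjusted p = 0.181).

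Fgf5, a marker of the epiblast after implantation, was higher with tamoxifen. Its level was 12 and 11.4 CPM with tamoxifen, against 5.47 and 3.30 CPM with ethanol. The tamoxifen libraries were close together, whereas the ethanol libraries differed by more. In edgeR the log2 fold change came to 1.45 ± 0.23 (SE; adjusted p = 0.000632), and 1.69 with GC correction. Without ethanol replicate 1 it was 1.82 and without ethanol replicate 2 it was 1.1, called both times. Of its neighbors, Prdm8 had 0.96 ± 0.74 (adjusted p = 0.343). It was 2.45 and called without ethanol replicate 1, but 0.05 (adjusted p = 0.927) without ethanol replicate 2. It was also called with no filter on low counts (0.96) and with the replicate number as a block, without GC correction (1.03) and with it (0.86). On the other side, 1700007G11Rik had at most 4 reads in a library and was not tested.

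Fgf8, a ligand of the primitive streak and early patterning, and Fgf17, its close relative, did not move alike. Fgf8 was barely read, with 15 and 30 reads with tamoxifen and 7 and 4 with ethanol. Its level was 1.06 and 1.68 CPM with tamoxifen, against 0.456 and 0.154 CPM with ethanol. From the summed reads the ratio of tamoxifen to ethanol was 5.29, with an exact 95% interval of 2.70 to 11.3 that covers counting error only. The edgeR quasi-likelihood test gave a log2 fold change of 2.34 ± 0.53 (SE; adjusted p = 0.00395), and 1.56 with GC correction (adjusted p = 0.0477). It was not called without tamoxifen replicate 2 (1.93). With GC correction it was not called without tamoxifen replicate 1 (1.8), tamoxifen replicate 2 (1.18) or ethanol replicate 2 (0.93). With no correction, leaving out ethanol replicate 1 gave 3.14 and leaving out ethanol replicate 2 gave 1.6, both called. Neighboring Fbxw4 was also higher, by 1.24 ± 0.19 (adjusted p = 0.000451; 0.60 with GC correction), while Npm3 on the other side had 0.00 ± 0.19 (adjusted p = 0.987).

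Fgf17 had 18.8 and 17.4 CPM with tamoxifen, against 21.6 and 14.5 CPM with ethanol. Both tamoxifen values lay between the ethanol values. By the edgeR quasi-likelihood test this was a log2 fold change of 0.02 ± 0.20 (SE; adjusted p = 0.954), and 2 SE either way reached from -0.38 to 0.41. With GC correction the value was -0.49 (adjusted p = 0.0672), and leaving out ethanol replicate 2 as well gave -0.69, which passed. Its neighbor Npm2 was higher by 1.38 ± 0.35 (adjusted p = 0.00698; not called without ethanol replicate 2, 0.93). On the other side Dmtn was higher by 0.50 ± 0.18 (adjusted p = 0.0367), a call that ended with GC correction (0.29), without tamoxifen replicate 1 (0.34) and without ethanol replicate 2 (0.30).

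Levels of different genes were compared per kilobase of the longest coding transcript, since longer transcripts yield more reads. These levels are without GC correction. Summed over the 5 ligand genes, the level was 79.0 and 72.7 CPM per kilobase with tamoxifen and 129.7 and 129.8 CPM per kilobase with ethanol. Fgf4 made up 75.7 and 75% of that sum with tamoxifen and 82.2 and 86.1% with ethanol. Fgf5 made up 6.08 and 6.25% with tamoxifen, against 1.69 and 1.02% with ethanol. Fgf17 was second in both groups, at 10.7 ± 0.582 CPM per kilobase with tamoxifen and 10.7 ± 2.99 CPM per kilobase with ethanol (SD, n = 2 each). With ethanol Fgf15 came next, at 7.87 ± 0.199 CPM per kilobase, below both Fgf17 libraries but within 1 SD of their mean. With tamoxifen the next place was held by Fgf5, at 4.68 ± 0.184 CPM per kilobase, ahead of Fgf15 at 2.10 ± 0.345. Fgf8 was last in both groups, at 1.17 ± 0.375 CPM per kilobase with tamoxifen and 0.261 ± 0.183 with ethanol.

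Among the receptor genes, Fgfr1 carried most of the reads and rose, Fgfr2 fell, and the calls of Fgfr3 and Fgfr4 ended with GC correction. The files count whole genes, so the b and c splice forms of the receptors, which differ in the ligands they bind, cannot be told apart. Fgfr1, the receptor through which stem cells chiefly respond to FGF4, had 173.9 and 164.8 CPM with tamoxifen, against 105.9 and 89.9 CPM with ethanol. Both tamoxifen libraries lay well above both ethanol libraries. In edgeR the log2 fold change came to 0.79 ± 0.15 (SE; adjusted p = 0.00154), and 0.46 with GC correction (adjusted p = 0.0355). The corrected call ended without tamoxifen replicate 1 (0.41), tamoxifen replicate 2 (0.50) or ethanol replicate 2 (0.40). The antisense gene Gm16159, which overlaps its exons, had at most 5 reads in any library.

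Fgfr2, which in the embryo marks the trophectoderm and the primitive endoderm, had 8.98 and 7.50 CPM with tamoxifen, against 12.2 and 14.1 CPM with ethanol. The groups did not overlap. The edgeR quasi-likelihood test gave a log2 fold change of -0.68 ± 0.18 (SE; adjusted p = 0.0106), and -0.63 with GC correction. The call ended without tamoxifen replicate 2 (-0.55), and with GC correction also without tamoxifen replicate 1 (-0.76), tamoxifen replicate 2 (-0.49) or ethanol replicate 2 (-0.50). Of 18 primitive endoderm genes 6 were higher and 1 lower (2 and 1 with GC correction), with summed levels of 6163.7 and 6034.8 CPM with tamoxifen and 5498.3 and 4624.2 CPM with ethanol. Of 10 tested trophectoderm genes 4 were higher and 2 lower (2 and 2 with GC correction), with summed levels of 443.0 and 452.7 CPM with tamoxifen and 313.9 and 313.0 CPM with ethanol. Over all tested genes 21.5% were higher and 22.9% lower (10.1% and 9.97% with GC correction). Neither marker list had a gene with no read in all libraries. Wdr11 (-0.21 ± 0.17, adjusted p = 0.332) and Ate1 (-0.28 ± 0.15, adjusted p = 0.127), the genes beside Fgfr2, did not pass the test, though Wdr11 was called without ethanol replicate 1 (-0.41). A Ctbp2 transcript in the annotation shares exon sequence with Fgfr2 on the same strand, and Ctbp2 was lower by -0.47 ± 0.15 (adjusted p = 0.0235; -0.79 and also called with GC correction). That call ended with library totals (-0.35) and without either tamoxifen library (-0.42 and -0.53).

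Fgfr3 had 6.65 and 7.45 CPM with tamoxifen, against 4.36 and 5.07 CPM with ethanol, with a log2 fold change of 0.57 ± 0.20 (SE; edgeR, adjusted p = 0.0380). This was the weakest call of the 10: it ended with GC correction (0.16), with DESeq2 (0.57, adjusted p = 0.131) and without tamoxifen replicate 1 (0.65), tamoxifen replicate 2 (0.49) or ethanol replicate 1 (0.48). Fgfr4, which with beta-Klotho forms the receptor for endocrine FGF15, had 12.4 and 11.4 CPM with tamoxifen, against 7.88 and 6.45 CPM with ethanol. Its log2 fold change of 0.75 ± 0.19 (SE; adjusted p = 0.00719) was 0.19 with GC correction (adjusted p = 0.485). Klb, the gene of beta-Klotho, had -0.17 ± 0.18 (adjusted p = 0.440). It is named here after its value was seen. Letm1, beside Fgfr3, was higher by 0.51 ± 0.17 (adjusted p = 0.0326; not called with GC correction, 0.33, without tamoxifen replicate 2, 0.32, or without ethanol replicate 1, 0.34). The other tested neighbors of the receptor genes did not pass: Tacc3 had -0.16 ± 0.14 (adjusted p = 0.390), Nsd1 had -0.03 ± 0.16 (adjusted p = 0.910) and Letm2 had 0.79 ± 0.32 (adjusted p = 0.0767). Letm2, beside Fgfr1, was called with library totals (0.91), no filter (0.78), limma voom (0.89) and the replicate block, without GC correction (0.81) and with it (1.1). It was 1.36 and called without ethanol replicate 1, but 0.31 (adjusted p = 0.310) without ethanol replicate 2.

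Summed over the 4 receptor genes, the level was 41.9 and 39.6 CPM per kilobase with tamoxifen and 27.2 and 24.2 CPM per kilobase with ethanol. No GC correction entered these levels, the shares or the order of the genes. With the correction the log2 fold changes went from 0.79 to 0.46 (Fgfr1), -0.68 to -0.63 (Fgfr2), 0.57 to 0.16 (Fgfr3) and 0.75 to 0.19 (Fgfr4). Fgfr1 made up 82.4 and 82.5% of the sum with tamoxifen and 77.1 and 73.6% with ethanol. Fgfr2 made up 4.97 and 4.39% with tamoxifen, against 10.4 and 13.5% with ethanol, where it was second to Fgfr1. With tamoxifen Fgfr4 was second, at 3.59 ± 0.217 CPM per kilobase, and Fgfr2 (1.91 ± 0.242) and Fgfr3 (1.66 ± 0.134) overlapped behind it (SD, n = 2 each). With ethanol the order behind Fgfr1 was Fgfr2 (3.05 ± 0.313 CPM per kilobase), Fgfr4 (2.15 ± 0.304) and Fgfr3 (1.11 ± 0.117), without overlap.

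Fgfbp1, whose secreted product frees FGFs from the matrix, was higher with tamoxifen. It had 41.6 and 45.4 CPM with tamoxifen, against 19.3 and 18.1 CPM with ethanol. The gap between groups was many times that between replicates. By the edgeR quasi-likelihood test this was a log2 fold change of 1.22 ± 0.15 (SE; adjusted p = 0.000167), 1.42 with GC correction, and called in all 17 other ways of processing. Both neighbors on chromosome 5 moved the opposite way. Cd38, a surface NAD-degrading enzyme gene, had 65 and 79 reads with tamoxifen against 214 and 357 with ethanol (-1.61 ± 0.19, adjusted p = 0.000114; -0.97 with GC correction), and Prom1, which encodes the surface protein prominin, had 75 and 102 against 188 and 388 (-1.30 ± 0.19, adjusted p = 0.000380; -0.98 with GC correction).

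**Figure D2:**
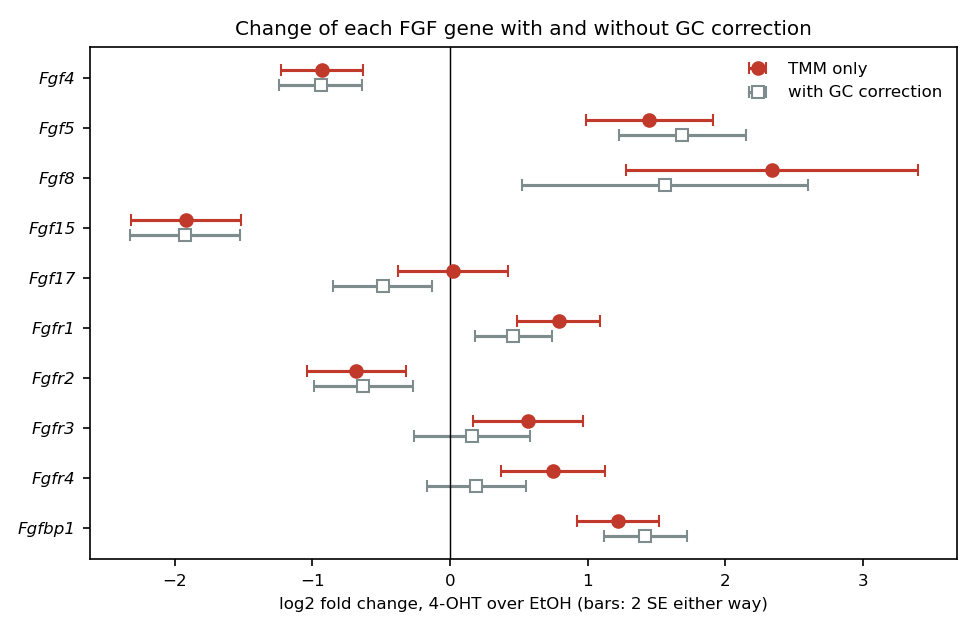
Log2 fold change of each gene, tamoxifen (4-OHT) over ethanol (EtOH), from edgeR with TMM factors alone (filled circles) and with GC correction (open squares). Bars reach 2 SE either way. The bars of Fgf4, Fgf15, Fgf5, Fgfbp1, Fgf8, Fgfr1 and Fgfr2 stay clear of 0 in both. Fgfr3 and Fgfr4 move to 0.16 and 0.19 with the correction.

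The change of each gene was also set beside that of tested genes of like GC content, in 10 bins of near equal numbers. Fgf5 (47.0% GC) and Fgfbp1 (47.6%) belong to a bin whose median log2 fold change was -0.19 and of which 5.78% were higher, yet both rose. Fgf4 and Fgf15, both at 50.8%, belong to a bin with a median of 0.09 and 10.6% lower. The log2 fold changes of Fgfr3 (0.57) and Fgfr4 (0.75) were close to the medians of their bins, 0.51 and 0.69, in which 51.3% and 59.4% of genes were higher. Fgf8 shares the bin of Fgfr4 and stood above its median at 2.34. Fgf17 (0.02) shares the bin of Fgfr3 and stood below its median.

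**Figure D3:**
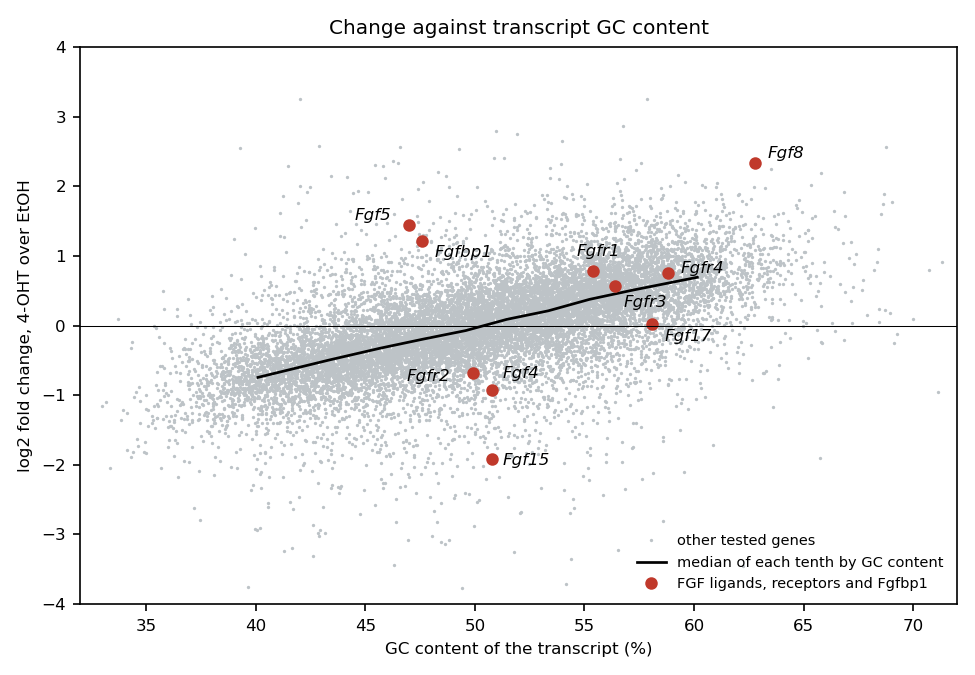
Log2 fold change of tested genes, tamoxifen (4-OHT) over ethanol (EtOH), against the GC content of the transcript in percent. Grey points are all tested genes within the plotted range, the line joins the medians of the 10 bins, and red points are the 10 FGF genes. Fgfr3 and Fgfr4 lie near the line, while Fgf5, Fgfbp1, Fgf4 and Fgf15 lie away from it.

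The rest of the FGF family was mostly silent or low. Fgf10, named after its value was seen, was an exception. It had 23.0 and 22.5 CPM with tamoxifen, against 26.4 and 32.7 CPM with ethanol (not called). Of 19 further genes (the remaining FGF genes, Fgfrl1 and Fgfbp3), 9 had too few reads to be tested, at most 14 in a library, and Fgf6 had none. Of the 10 tested, 1 was higher and 3 were lower (2 and 3 with GC correction), with a median log2 fold change of -0.16. Without GC correction the 4 called are near the 44.5% called over all tested genes. Over all tested genes 10.1% were higher and 9.97% lower with the correction. With GC correction the calls were partly other genes, named here after their values were seen: Fgf2 (1.34) and Fgf7 (1.26) were higher in place of Fgf3, and Fgf11 (-0.74) was lower in place of Fgf13. Fgf1, a ligand that binds all the FGF receptors, fell to 0.354 and 0.504 CPM with tamoxifen, against 1.69 and 1.88 CPM with ethanol (-2.03 ± 0.40, edgeR adjusted p = 0.00185). It too was barely read, with 5 and 9 reads with tamoxifen and 26 and 49 with ethanol. Fgfbp3, the relative of Fgfbp1, was lower by -1.05 ± 0.21 (adjusted p = 0.00197), so the 2 binding protein genes were called in opposite directions. Fgf13, an FGF homolog that stays inside the cell, was lower by -0.79 ± 0.20 (adjusted p = 0.00662; -0.50 and not called with GC correction), and Fgf3, described above, was the gene called higher.

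Of 27 genes of co-receptors and heparan sulfate, 24 were tested, and 8 were higher and 3 lower with tamoxifen (5 and 0 with GC correction), with a median log2 fold change of 0.28. The 11 called are near the 44.5% called over all tested genes. By direction, 21.5% of all tested genes were higher and 22.9% lower (10.1% and 9.97% with GC correction). With GC correction the 5 higher were Flrt2, Sdc3, Hs6st1, Ext1 and Sulf1, of which Ext1 and Sulf1 were not called without it. Sdc3, a heparan sulfate proteoglycan of the syndecan family, was highest by fold at 57.3 and 56.5 CPM with tamoxifen, against 23.8 and 17.5 CPM with ethanol (1.47 ± 0.17, edgeR adjusted p = 0.000120; 0.93 with GC correction). Hs6st1, which adds sulfate to heparan sulfate chains, was higher by 0.95 ± 0.15 (adjusted p = 0.000539; 0.47 with GC correction). Sdc1 had 0.74 ± 0.15 (adjusted p = 0.00200), and Flrt3, a membrane protein that binds FGF receptors, had -0.76 ± 0.15 (adjusted p = 0.00205). Neither passed with GC correction (0.41 and -0.21).

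Of 26 tested signal transducers between receptor and ERK, 4 were higher and 7 lower (3 and 3 with GC correction), with a median of -0.01. These counts are near the shares over all tested genes, 21.5% higher and 22.9% lower (10.1% and 9.97% with GC correction). Map2k2, which encodes the ERK kinase MEK2, was higher by 0.89 ± 0.18 (edgeR adjusted p = 0.00219), and the ERK-activated kinase gene Rps6ka1 by 0.61 ± 0.15 (adjusted p = 0.00547). Rasa1, which encodes a RAS-inactivating protein, was lower by -0.69 ± 0.15 (adjusted p = 0.00272). None of these 3 passed with GC correction (0.25, 0.14 and -0.12), whereas Rps6ka2, a relative of Rps6ka1, was lower both without it (-0.80 ± 0.18, adjusted p = 0.00351) and with it (-1.07).

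Of 21 tested targets and feedback genes of the pathway, 13 were higher and 1 lower with tamoxifen (9 and 1 with GC correction), with a median log2 fold change of 0.82 (0.47 with GC correction). Over all tested genes 21.5% were higher and 22.9% lower (10.1% and 9.97% with GC correction). Spry4, a feedback inhibitor of receptor signaling, had 95.8 and 87.5 CPM with tamoxifen, against 48.4 and 46.5 CPM with ethanol. Myc, which other pathways also control, had 139.7 and 137.7 CPM with tamoxifen, against 49.9 and 31.5 CPM with ethanol. Ier2, an immediate early gene, had 1.14 ± 0.16 (edgeR adjusted p = 0.000300; 0.47 with GC correction). Spred1, an inhibitor of RAS signaling, was the gene called lower (-0.97 ± 0.15, adjusted p = 0.000524), but not with GC correction (-0.34), where Spry1 was (-0.67, named after its value was seen).

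**Figure D4:**
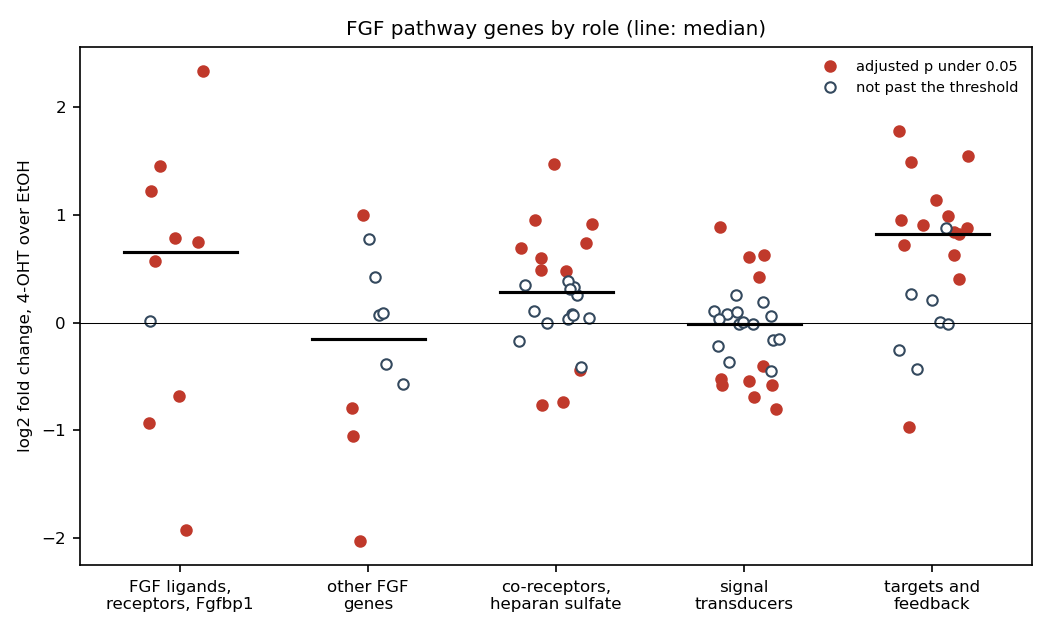
Log2 fold change, tamoxifen (4-OHT) over ethanol (EtOH), of each tested gene of the FGF system by role, without GC correction. Filled points passed an adjusted p of 0.05, open points did not, and lines are medians. The medians run from -0.16 (other FGF genes) to 0.82 (targets and feedback).

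**Figure D5:**
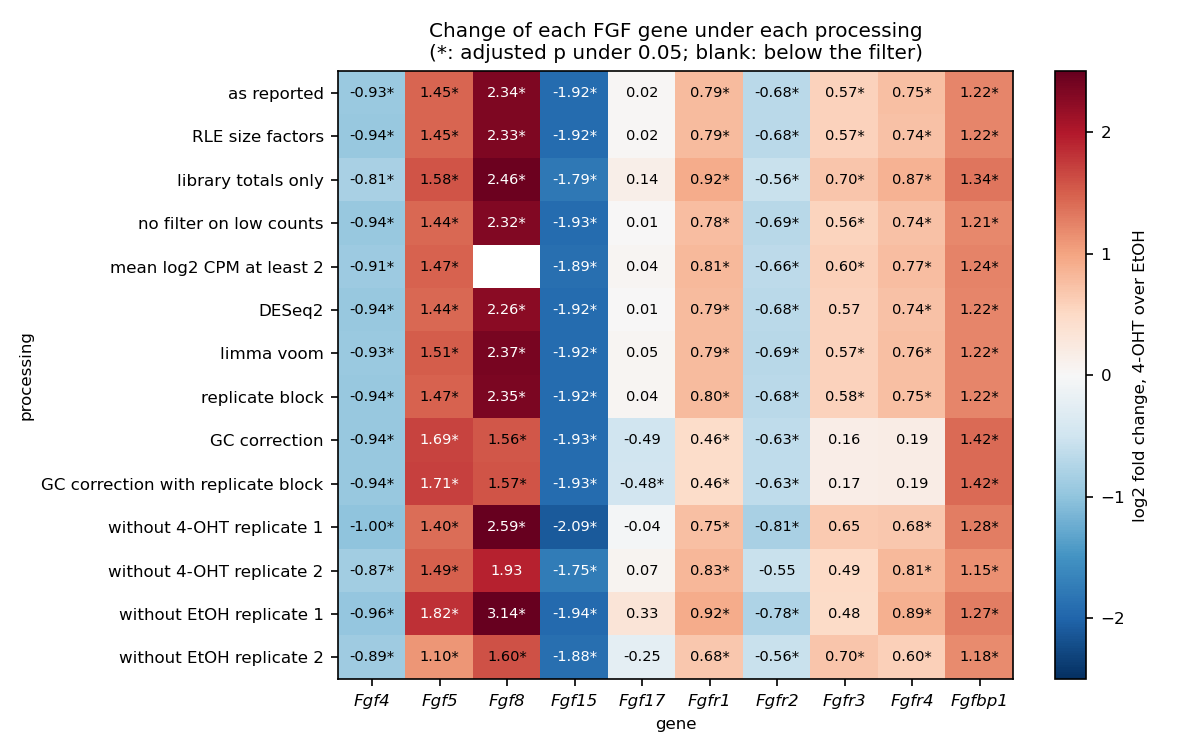
Log2 fold change, tamoxifen (4-OHT) over ethanol (EtOH), of each of the 10 genes (columns) under each processing (lines of the grid). GC correction with a library left out is not shown. A star marks an adjusted p under 0.05. Red is higher and blue lower with tamoxifen, and the blank cell is Fgf8 below a stricter filter. Fgf4, Fgf5, Fgf15, Fgfbp1 and Fgfr1 carry a star throughout. With GC correction and a library left out, not shown, the first 4 kept their call and Fgfr1 mostly lost it.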

How the data were processed

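The authors deposited raw counts of reads per gene symbol, 1 table for each library, ending in 5 summary lines of the form HTSeq writes, which were left out. The submitters' processing notes name the build mm9 and, as tools, HTSeq, DESeq2, Bowtie 1.1.1 and CASAVA 1.8.2. What each did, which annotation was used and whether strand was used is not given in the sources, so reads of overlapping genes cannot be told apart. Of 24428 genes, 14479 passed edgeR's filterByExpr.

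The main test was edgeR's quasi-likelihood test (edgeR 4.0.16, R 4.3.3) of tamoxifen against ethanol, robust, with TMM factors and group alone in the design, with Benjamini-Hochberg adjustment over all tested genes and a threshold of 0.05. Every adjusted p is from this test unless another is named. Log2 fold changes are tamoxifen over ethanol, and SE is the size of that change divided by the root of the F statistic. GC correction entered a loess trend of each library along GC content (span 0.5, degree 1) as an offset, and 99.4% of tested genes had a value. GC content and length are those of the longest coding transcript in GENCODE M21 (GRCm38), used with no coordinates. Promoter windows are RefSeq's. The procedure was tested on simulated data.

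Alternatives were RLE factors, library totals, other filters, DESeq2 1.42.0, limma voom (limma 3.58.1), the replicate number as a block, GC correction and leaving out each library. GC correction with a library left out was chosen after seeing the data. The members and lists were chosen with earlier results of these data known. The genes named are the 10 members, Smarca4, the nearest coding gene on each side of a member, genes whose exons overlap one, and up to 4 genes with the smallest adjusted p in each pathway list. Gm39147 and Gm46415, beside Fgfr1 and Fgfr4, were not analysed here. With 4 libraries no likeness between gene patterns was computed.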

Additional observations from a re-analysis of the deposited data

How the results depend on the processing

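Over 17 alternatives, Fgf4, Fgf5, Fgf15 and Fgfbp1 kept their direction and their call in each. For the 10 genes, 140 of 169 values kept their side of the threshold and 27 lost the call. Another 2 gained it (both Fgf17, lower with GC correction), and 0 called values turned. Among those kept, a value called in neither processing could change sign, as Fgf17 did (0.02, and -0.49 with GC correction). For the 32 other genes chosen by the naming rule, which leaves out genes named after their values were seen, the numbers were 373 of 412 kept, 28 lost and 11 gained. With library totals the median of all genes was 0.12 on the log2 scale, against -0.01. There 4082 of all tested genes were higher and 2519 lower, and of the co-receptor genes 12 were higher and 2 lower. With GC correction 1458 genes were higher and 1443 lower, against 3119 and 3322. Leaving out a library gave 1801 to 3598 genes higher and 2055 to 3728 lower, with the lowest counts without a tamoxifen library. Of the 10 FGF genes 2 to 6 were then higher and 2 to 3 lower, with or without GC correction. The 2 came with GC correction without tamoxifen replicate 1, tamoxifen replicate 2 or ethanol replicate 2.

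Of the other FGF genes, 2 were higher with library totals and with GC correction with or without the block, 0 with DESeq2 or the stricter filter, and 0 to 1 without a library (3 to 4 lower). Co-receptor genes called with GC correction were 5 higher and 0 lower (also 0 lower with the block), and 5 to 9 higher and 2 to 4 lower without a library. Transducers lower numbered 3 with GC correction and 2 to 8 without a library (2 to 4 higher). Targets lower numbered 2 with no filter and 1 to 2 without a library (9 to 15 higher).

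The replicate numbers are shared by the groups, but the labels do not say what they mark, and with 2 pairs the correlation of same-numbered deviations (0.225) does not show pairing. With the replicate block 6 FGF genes were higher and 3 lower, as without it, 5 other FGF genes were lower and 2 targets lower. Of the co-receptor genes 11 were higher and 4 lower with the block. Over all tested genes the block gave 3919 higher and 4168 lower, against 3119 and 3322 without it. With the block and GC correction Fgf17 was called lower (-0.48), and 4 FGF genes and 4 targets were lower. Of the co-receptor genes 10 were then higher and 0 lower, and of all tested genes 2579 were higher and 2458 lower. The block leaves 1 residual degree of freedom. Fgf8 had at most 30 reads in a library, which limits its precision, and it was not tested under the stricter filter. Leaving out a library leaves 1 in its group, whose spread is then taken from the other group. The causes of these differences were not tested.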
